A study of Mus musculus with 18 samples.

Results

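The 7 genes *Tcp11*, *Stx11*, *Snx22*, *Ceacam10*, *Ms4a5*, *Ermap* and *Svbp* were selected for a large fall of their transcripts in the lenses of mice homozygous for the *Cryaa*-R49C mutation. They were taken by gene symbol from the deposited gene counts, and they are 7 of 40800 Ensembl genes in that table, all of them among the 13938 genes tested. RNA-seq was performed on pooled whole lenses of C57BL/6J knock-in mice, in 18 libraries with 3 per group. The *Cryaa*-WT libraries came from mice 2 days old, as did those of *Cryaa*-R49C-het and of *Cryaa*-R49C-homo, where Arg49 of αA-crystallin is replaced by Cys on 1 or both alleles. The *Cryab*-WT libraries came from mice 14 days old, as did those of *Cryab*-R120G-het and of *Cryab*-R120G-homo, where Arg120 of αB-crystallin is replaced by Gly. A library is a pool of lenses, so that spread between single animals was not measured. Age and mouse line change together and cannot be told apart.

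The lens is enclosed by a capsule and consists of an epithelial layer on its anterior side and a mass of elongated fibre cells. New fibre cells are added throughout life, fill with crystallins, build a specialised membrane and cytoskeleton, and then degrade their nuclei and other organelles. The α-crystallins are small heat shock proteins that keep the other lens proteins soluble, and both mutations cause hereditary cataract. The 7 genes belong to different families. *Svbp* encodes the small partner protein of the vasohibins, the enzymes that remove the terminal tyrosine of α-tubulin in microtubules. *Stx11* encodes a syntaxin, a membrane fusion protein best known from granule release by cytotoxic lymphocytes, and *Snx22* a sorting nexin with a lipid-binding phox domain. *Ceacam10* and *Ermap* encode immunoglobulin-type proteins, the first of the carcinoembryonic antigen family and the second of the butyrophilin-like group, named for its expression in erythroid cells. *Ms4a5* encodes a membrane protein of the family with 4 membrane spans, and *Tcp11* a protein known from sperm motility.

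In the GRCm38 assembly with the GENCODE vM21 annotation, all 7 are protein-coding genes on 6 chromosomes. *Ermap* (chromosome 4, 119175457 to 119190011, minus strand) and *Svbp* (chromosome 4, 119195306 to 119201298, plus strand) are direct neighbours that point away from each other, with 5295 bases between their starts. *Ceacam10* lies on chromosome 7 (24777206 to 24784657, plus), *Snx22* on chromosome 9 (66065176 to 66069719, minus), *Stx11* on chromosome 10 (12938209 to 12964298, minus) and *Ms4a5* on chromosome 19 (11273238 to 11283873, minus). *Tcp11* lies on chromosome 17 (28066745 to 28080639, minus), 3.60 Mb from *Cryaa* itself. The 3′ part of *Snx22* shares 1448 bases with *Ppib* on the other strand. *Tcp11* shares 1628 bases of its own strand with a processed pseudogene, 4930526A20Rik, which had 58 counts in the 18 libraries together, and 3878 bases with another transcript of that strand, AC132460.1, which is not in the count table. All of *Ms4a5* lies opposite an antisense transcript, 4930526L06Rik, with 37 counts. Only reads that could be given to 1 gene were counted, so reads in bases shared by 2 counted genes may be missing from both. Whether strand was used to assign them is not given in the sources used here.

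Promoter sequences are shown for the divergent pair, and for the genes that held a searched motif. They come from the RefSeq table of build GRCm38.p6, in which 250 bases before and 50 bases after each annotated start make a window of 300 bases. All 7 genes matched, with 12 windows in all. The windows printed are chr4:119189946-119190245 (minus) for *Ermap*, chr4:119195060-119195359 (plus) for *Svbp*, chr7:24776917-24777216 (plus) for *Ceacam10* and chr9:66069710-66070009 (minus) for *Snx22*, each written 5′ to 3′ on the strand of the gene. Capitals mark the motif matches.
Ermap: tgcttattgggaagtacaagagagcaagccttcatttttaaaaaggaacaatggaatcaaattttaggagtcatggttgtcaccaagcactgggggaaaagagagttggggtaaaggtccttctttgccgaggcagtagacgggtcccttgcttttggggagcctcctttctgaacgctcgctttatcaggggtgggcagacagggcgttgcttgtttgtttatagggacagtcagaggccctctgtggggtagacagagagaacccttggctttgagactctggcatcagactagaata
Svbp: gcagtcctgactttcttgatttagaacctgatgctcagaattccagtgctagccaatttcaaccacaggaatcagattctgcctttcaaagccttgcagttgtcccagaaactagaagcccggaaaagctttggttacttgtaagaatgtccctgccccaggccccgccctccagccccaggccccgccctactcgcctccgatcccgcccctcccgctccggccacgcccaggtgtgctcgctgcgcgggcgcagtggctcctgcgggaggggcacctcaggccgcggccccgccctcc
Ceacam10: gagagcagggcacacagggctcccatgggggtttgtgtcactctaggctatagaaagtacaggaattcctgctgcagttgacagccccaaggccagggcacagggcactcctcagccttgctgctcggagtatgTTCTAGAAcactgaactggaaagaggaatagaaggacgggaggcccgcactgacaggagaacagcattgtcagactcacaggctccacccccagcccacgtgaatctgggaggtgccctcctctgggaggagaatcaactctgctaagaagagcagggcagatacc
Snx22: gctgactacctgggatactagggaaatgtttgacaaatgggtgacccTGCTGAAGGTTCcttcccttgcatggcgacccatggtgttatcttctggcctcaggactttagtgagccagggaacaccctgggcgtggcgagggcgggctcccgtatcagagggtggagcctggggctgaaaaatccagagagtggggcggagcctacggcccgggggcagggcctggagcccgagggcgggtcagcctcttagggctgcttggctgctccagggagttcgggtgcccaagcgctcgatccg

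Sites of several factors were searched on both strands. The heat shock element written GAANNTTC was found in the *Snx22* windows alone among the 7 genes, starting 199 bases before the start in the window printed, and in 7.86% of all 32851 windows. The heat shock element TTCNNGAA was found in the *Ceacam10* windows alone among the 7, starting 116 bases before the start in the window printed, and in 8.52% of all windows. The MAF site TGCTGA lay in the *Snx22* windows and in 19.5% of all windows, and it shared 2 bases with the heat shock element there. Neither the AP-1 site TGANTCA (7.81% of all windows) nor the ATF4 and CHOP element TGATGNAA (3.97%) occurred in a window of the 7 genes. Each searched motif thus occurred in at most 1 of the 7 genes. Base composition also differed among the 12 windows: GC content went from 40.0% in the *Ms4a5* window to 78.7% in the other *Svbp* window, with 48.7% in *Ermap* and 62.3% in the *Svbp* window printed, beside a median of 52.7% over all windows.

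Library totals ranged from 14272174 to 29639719 counts. TMM factors, which scale a library by its middle genes rather than by its total, were 1.20 to 2.26 at day 2 and 0.488 to 0.774 at day 14. Levels are given below as CPM, the count divided by the TMM-scaled library size in units of 1e+06 reads. Lens fibre markers were abundant in all libraries, and the summed level of 32 of them lay between 247650 and 389155 CPM in *Cryaa*-WT and between 140177 and 271181 CPM in *Cryaa*-R49C-homo. In *Cryab*-WT it lay between 1273740 and 1331760 CPM. Values above 1e+06 are possible because TMM factors below 1 shrink the library size, so CPM at day 14 are larger than reads per 1e+06 counted reads. *Cryaa* transcript itself stood at 91466 ± 18681 CPM (SD, n = 3) in WT and 54165 ± 33718 in homo, where libraries spanned 31365 to 92896 CPM and overlapped with WT. It did not pass the test of homo against WT (edgeR, FDR 0.15), but passed as lower with the replicate block and without homo replicate 1. A missense knock-in leaves the transcript in place, so this level does not check the genotype.

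The fall that selected the genes is described first, without a test. In *Cryaa*-R49C-homo the 7 genes stood at 0.347% (*Ms4a5*) to 12.7% (*Svbp*) of their WT mean. For each of them all 3 homo libraries lay below all 3 WT libraries and below all 3 het libraries. Of all genes tested, 12.6% had homo libraries below all WT libraries and 10.5% had them below all het libraries. With libraries scaled by their totals alone, the homo means were 0.531% to 17.95% of WT, and the same separation held in all 7. In bulk lens RNA, fewer cells that express a gene and less RNA per cell cannot be told apart.

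**Figure D1:**
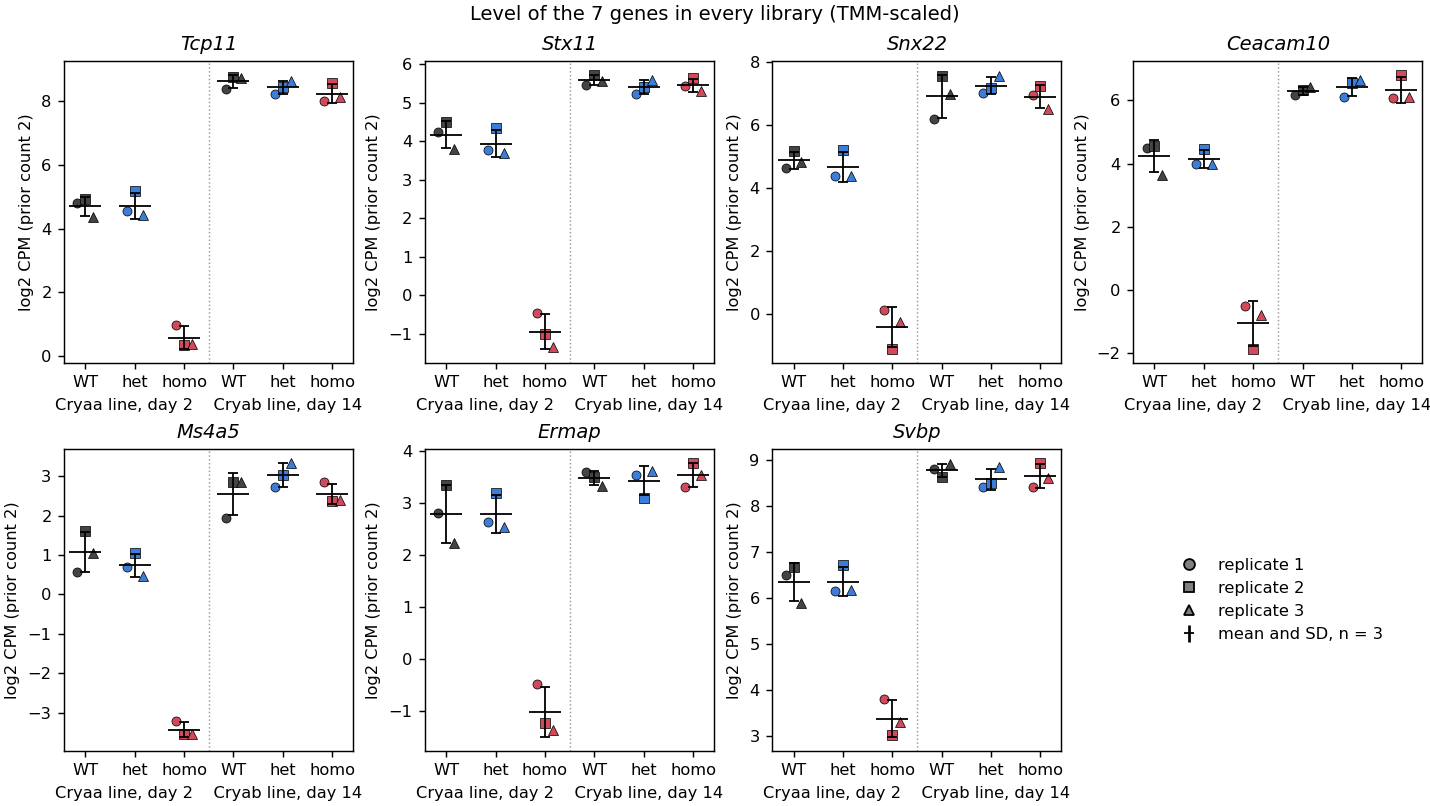
Level of each of the 7 genes in every library, as log2 CPM (prior count 2) on the y axis, by genotype on the x axis, with *Cryaa*-line libraries (day 2) left and *Cryab*-line libraries (day 14) right of the dotted line; symbols are replicates, and bars the mean and SD of 3 libraries. In each panel the 3 *Cryaa*-R49C-homo libraries are the lowest of the 18, while the *Cryab*-R120G-homo libraries overlap both with the WT and with the het libraries of their line.

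*Svbp* was the most abundant of the 7. In CPM, *Cryaa*-WT replicates 1 to 3 had 90.9, 102 and 59.3, het had 71.6, 105 and 72.6, and homo had 14.0, 8.10 and 9.80. Means were thus 83.9 ± 22.01 in WT, 83.1 ± 19.1 in het and 10.6 ± 3.03 in homo (SD, n = 3). The homo transcript was still well counted, with 258 to 636 reads per library, and *Svbp* had the least complete loss of the 7.

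*Ermap*, its neighbour, was expressed at a lower level. *Cryaa*-WT libraries had 6.98, 10.1 and 4.62 CPM, het 6.18, 9.13 and 5.71, and homo 0.638, 0.345 and 0.304. The homo mean of 0.429 ± 0.182 CPM was 5.94% of the WT mean of 7.23 ± 2.74. Homo libraries held 8 to 29 *Ermap* reads.

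*Tcp11*, the sperm protein gene, had 27.9, 30.2 and 20.5 CPM in *Cryaa*-WT, 23.2, 36.0 and 21.3 in het, and 1.89, 1.19 and 1.22 in homo. Its homo mean was 5.48% of WT. The WT and het ranges overlapped in part, with the highest library in het and the lowest in WT, and the homo libraries stood apart at 32 to 86 reads.

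*Stx11*, the syntaxin gene, had 18.9, 22.4 and 13.8 CPM in *Cryaa*-WT, 13.6, 20.3 and 12.9 in het, and 0.638, 0.408 and 0.304 in homo, a homo mean of 2.45% of WT. *Snx22*, the sorting nexin gene, had 24.7, 35.8 and 28.4 CPM in WT, 20.6, 36.8 and 20.8 in het, and 1.01, 0.377 and 0.760 in homo, or 2.42% of WT. Both were counted in few reads in homo lenses, with 8 to 29 reads of *Stx11* and 12 to 46 of *Snx22* per library. *Ppib*, the peptidyl-prolyl isomerase gene that overlaps *Snx22*, stood at 12.8 CPM in WT and 12.7 in homo.

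*Ceacam10*, of the carcinoembryonic antigen family, had 22.4, 23.5 and 12.4 CPM in *Cryaa*-WT, 15.6, 21.99 and 15.9 in het, and 0.616, 0.188 and 0.494 in homo, a mean of 2.23% of WT. *Ms4a5* had the lowest count of the 7. Its WT libraries held 33, 87 and 57 reads and its het libraries 56, 63 and 52, while the homo libraries held 1, 0 and 0. Over the summed counts the WT rate was 224 times the homo rate, with an exact 95% interval of 39.8 to 8916 that covers counting error only. The size of the *Ms4a5* fall is therefore known only as a wide range.

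The 7 genes also shared their highest homo library. Replicate 1 was the highest homo library for all 7 genes, and for *Ms4a5* it held the single read. Among *Cryaa*-WT and among het libraries, replicate 2 was the highest for all 7, and among *Cryab*-R120G-het libraries replicate 3 was. With totals alone, *Cryaa*-WT replicate 2 was highest only for *Ermap* and *Svbp*, replicate 1 for *Ceacam10*, and replicate 3 for the rest. *Cryaa*-R49C-het replicate 2 was then highest except for *Ceacam10*, and *Cryab*-R120G-het replicate 3 except for *Ermap*. Homo replicate 1 stayed highest. In *Cryaa*-WT and het, replicate 2 had the lowest TMM factor of its group (1.20 in WT and 1.44 in het), whereas homo replicate 1 had the highest of its group (2.26). With totals alone as the scale, the WT coefficient of variation of *Svbp* went from 26.2% to 1.48%, and that of *Ceacam10* from 31.4% to 8.72%. It went down in 5 of the 7 genes, stayed at 36.6% and 36.0% in *Ms4a5*, and went up from 19.0% to 27.4% in *Snx22*.

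Ranked by the log2 fold change of homo against WT among the 10544 tested genes with a WT mean of at least 1 CPM, *Ms4a5* was 2nd, *Ceacam10* 5th, *Snx22* 7th, *Stx11* 8th, *Tcp11* 14th, *Ermap* 15th and *Svbp* 37th. The other genes that fell as far as *Svbp* included *Alox15* (-8.90), which encodes a lipoxygenase, *Hspb1* (-5.51), a small heat shock protein gene, and *Clic5* (-5.48), the 3 largest falls outside the 7. *Svbp*, just inside the range of the 7, had a log2 fold change of -2.98, and *Pacsin3*, just before it, had -3.001. *Grem1* (-2.96) and *Fstl4* (-2.96) were just outside. Since the genes were selected on this contrast, these ranks describe the selection. The place of *Ms4a5* rests on 1 read over all homo libraries and is not fixed, given the wide interval above.

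**Figure D2:**
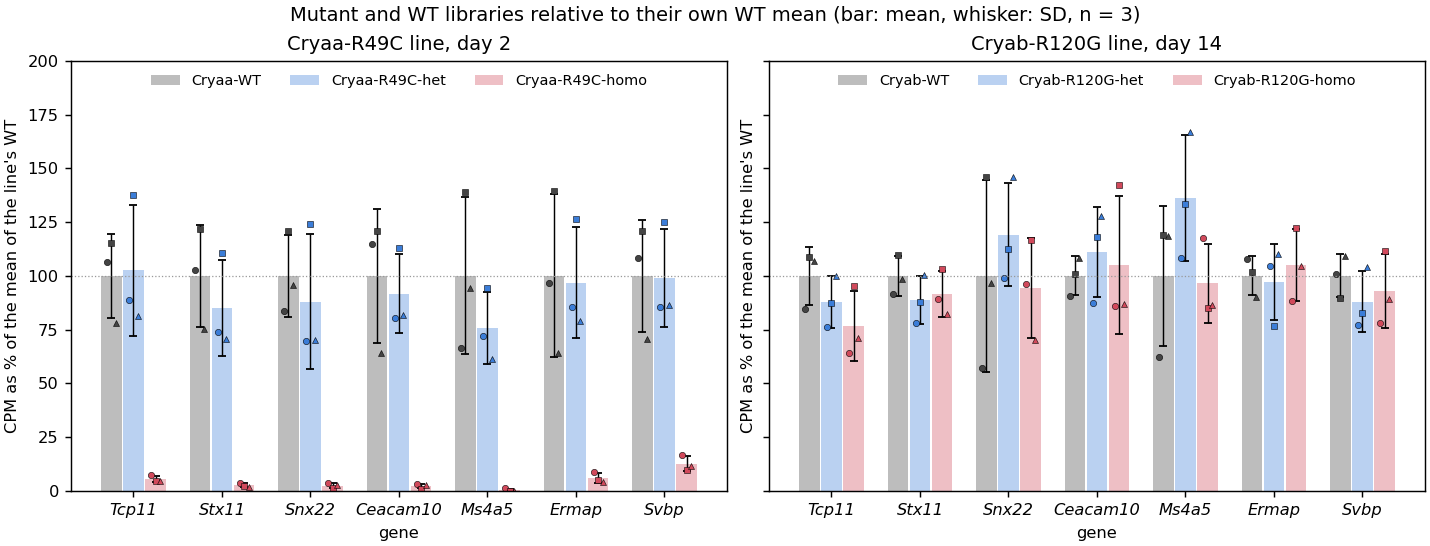
CPM of each library as a percentage of the mean of its own line's WT (y axis, from 0), for the 7 genes (x axis) in the *Cryaa*-R49C line (left) and the *Cryab*-R120G line (right); bars are means, whiskers SD of 3 libraries and symbols single libraries. Homo bars are between 0.347% and 12.7% of WT on the left, and between 76.7% and 105% on the right.

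Whether 1 mutant allele was enough was asked by comparing *Cryaa*-R49C-het with *Cryaa*-WT. None of the 7 genes passed the test at an FDR of 0.05 (edgeR quasi-likelihood test, Benjamini-Hochberg over 13938 genes), where 0.00717% of all genes (1 gene) did, and 708 genes had an unadjusted p below 0.05. The lowest unadjusted p of the 7 was 0.202 (edgeR, *Ms4a5*), and DESeq2 called 0 of them too. Het means were 75.9% (*Ms4a5*) to 103% (*Tcp11*) of WT, and FDR values were 0.836 to 0.991. With totals alone as the scale, het means were 87.9% (*Ms4a5*) to 120.04% (*Tcp11*) of WT. The het and WT libraries overlapped for all 7, whereas they did not overlap for 21.9% of all genes. The largest difference was that of *Ms4a5*, with a log2 fold change of -0.41 ± 0.31 (SE) and a 95% interval of -1.09 to 0.27. The interval of *Svbp* was -0.56 to 0.53, and that of *Tcp11* -0.50 to 0.57. The WT libraries of this comparison are those that selected the genes.

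In the homo against het comparison, which uses the same homo libraries and is given without a test, the log2 differences were -2.96 (*Svbp*) to -6.75 (*Ms4a5*), close to those against WT. Homo means were 0.457% (*Ms4a5*) to 12.8% (*Svbp*) of the het means.

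The libraries of the *Cryab*-R120G line had no part in the selection. At day 14, *Tcp11* had 337, 434 and 427 CPM in *Cryab*-WT, 303, 349.6 and 399 in het, and 256, 381 and 283 in homo. *Svbp* had 444, 394 and 481 CPM in WT, 339, 365 and 459 in het, and 343, 490.5 and 393 in homo. In both genes the 3 genotypes overlapped.

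*Snx22* varied most among the day 14 WT libraries, with 73.9, 189.6 and 126 CPM, beside 129, 146 and 189 in het and 125, 151 and 91.0 in homo. *Ceacam10* had 71.4, 79.7 and 85.7 CPM in WT, 69.0, 93.0 and 101 in het, and 68.0, 112 and 68.7 in homo. *Stx11* had 44.1, 53.0 and 47.7 CPM in WT, 37.7, 42.3 and 48.5 in het, and 43.1, 49.9 and 39.7 in homo. No genotype of these 3 genes stood apart from the others.

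The genotypes of the genes of lowest level overlapped likewise. *Ermap* had 12.0, 11.3 and 10.01 CPM in *Cryab*-WT, 11.6, 8.54 and 12.3 in het, and 9.82, 13.6 and 11.6 in homo. *Ms4a5* had 3.74, 7.13 and 7.12 CPM in WT, 6.49, 8.02 and 10.01 in het, and 7.07, 5.11 and 5.20 in homo.

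None of the 7 genes passed the same test in *Cryab*-R120G-homo against *Cryab*-WT, where 7 of 13938 genes (0.0502%) passed and 851 had an unadjusted p below 0.05. FDR values were 0.905 to 0.997, the lowest unadjusted p of the 7 was 0.132 (*Tcp11*), and DESeq2 called 0 of the 7 in this and in the next 2 comparisons. With the replicate number as a block, all genes called went from 7 to 18, and 0 of the 7 were among them. Homo means were 76.7% (*Tcp11*) to 105% (*Ceacam10* and *Ermap*) of WT. The *Tcp11* log2 fold change was -0.38 ± 0.24 (SE), with a 95% interval of -0.91 to 0.15, the lowest bound of the 7. Libraries of both genotypes overlapped in all 7 genes, while 9.0% of all genes had libraries that did not overlap. Between libraries of the same replicate number, *Tcp11* and *Stx11* were lower in homo in 3 of 3 pairs, and neither passed with the block (edgeR, *Tcp11* unadjusted p of 0.0768 and FDR 0.732, *Stx11* FDR 0.957). This direction held with TMM scaling only. With totals alone *Stx11* and *Ermap* were higher in homo in 3 of 3 pairs. *Tcp11* was then higher in the first pair and lower in the others. On that scale the log2 fold changes of homo against WT were -0.03 (*Tcp11*) to 0.42 (*Ceacam10* and *Ermap*), and 0 of the 7 passed. In *Cryab*-R120G-het against *Cryab*-WT, 0 of the 7 passed, beside 0.00717% of all genes (1 gene, and 532 with an unadjusted p below 0.05), and the log2 fold changes were -0.19 (*Tcp11*) to 0.43 (*Ms4a5*, unadjusted edgeR p of 0.162, the lowest of the 7). Here too all 7 overlapped, beside 10.1% of all genes that did not. In homo against het, 0 of the 7 and 0% of all genes passed (273 with an unadjusted p below 0.05), and the lowest unadjusted edgeR p of the 7 was 0.109 (*Ms4a5*). No gene was called by the test of a difference between the het effects of the lines, where the FDR was 0.9999 for each of the 7. The homo effects were not tested against each other between lines, because the selection fixed one of them.

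The WT level of the 7 genes was compared between *Cryab*-WT at 14 days and *Cryaa*-WT at 2 days of age, where age and line change together. *Tcp11* was 15.2-fold higher in *Cryab*-WT than in *Cryaa*-WT, with 399 ± 54.1 against 26.2 ± 5.08 CPM (SD, n = 3). The fold was 5.24 for *Svbp* (440 ± 44.0 CPM at day 14), 4.38 for *Snx22* (129.7 ± 58.0), 4.06 for *Ceacam10* (78.9 ± 7.14), 2.84 for *Ms4a5* (6.00 ± 1.95) and 2.63 for *Stx11* (48.3 ± 4.46). These 6 passed the test (edgeR, FDR 2.01e-09 for *Tcp11* to 0.00132 for *Ms4a5*), in a comparison where 23.2% of all genes passed and 11.7% passed with a higher level at day 14. Of 31 tested lens fibre markers, 24 passed as higher and 0 as lower in the same comparison, with a median log2 fold change of 1.59. *Ermap*, at 11.1 ± 1.01 against 7.23 ± 2.74 CPM, was 1.54-fold higher and did not pass (FDR 0.111). Without *Cryaa*-WT replicate 2 it passed as well, at a log2 fold change of 0.93 (FDR 0.0337). The day 14 libraries lay above all day 2 libraries for the same 6 genes, as for 20.2% of all genes, and *Ermap* overlapped. The day 2 WT libraries are among those that selected the genes, so this comparison is not independent of the selection.

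This result depended on the scale. With totals alone, the median of all genes moved from -0.07 to -1.61 on the log2 scale, 157 genes were called higher and 11436 lower where TMM gave 1634 and 1603, and of the 7 only *Tcp11* (2.42, FDR 8.96e-07) and *Svbp* (0.89, FDR 0.00194) were still called higher. *Snx22* (0.61) and *Ceacam10* (0.55) were not called, *Stx11* (-0.10) and *Ms4a5* (-0.01) turned direction without a call, and *Ermap* was called lower (-0.85, FDR 0.00933). All 7 still lay above the shifted median. As a share of all reads, only *Tcp11* and *Svbp* thus passed as larger at day 14, and relative to the middle gene 6 of 7 did.

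**Figure D3:**
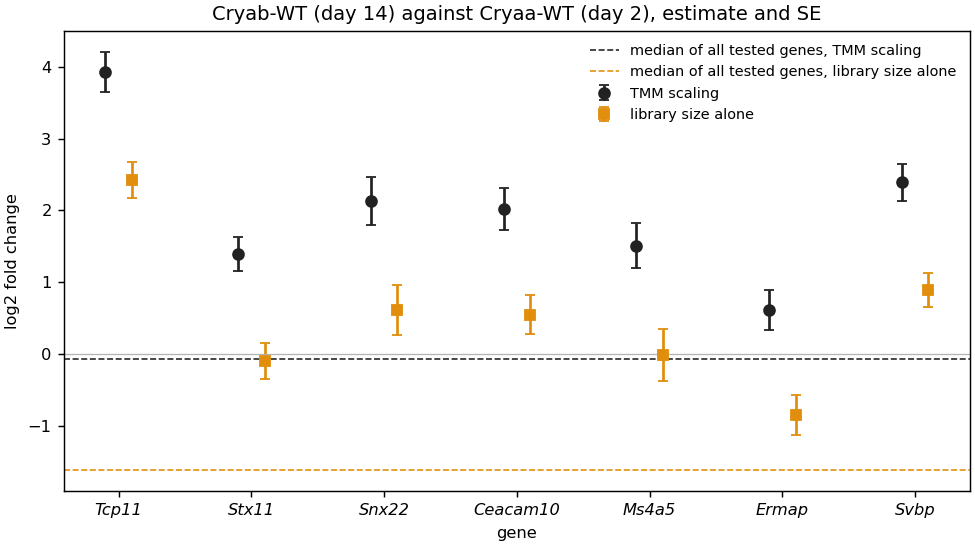
Log2 fold change of *Cryab*-WT (day 14) against *Cryaa*-WT (day 2) for the 7 genes, with its SE, under TMM scaling (black) and with library size alone (orange); dashed lines are the medians of all 13938 tested genes at -0.07 and -1.61. Each gene lies above the median of its scaling, and *Stx11*, *Ms4a5* and *Ermap* change sign between the scalings.

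Levels of different genes were compared per kb of gene length, from the deposited RPKM. In *Cryaa*-WT *Svbp* was highest with 78.8 ± 20.7 CPM per kb (SD, n = 3). *Ceacam10* (18.6 ± 5.84), *Tcp11* (12.5 ± 2.43), *Snx22* (11.6 ± 2.20) and *Stx11* (7.67 ± 1.81) followed, and the mean ± SD ranges of neighbours in this order overlapped. *Ms4a5* (1.39 ± 0.509) and *Ermap* (1.36 ± 0.518) were lowest and level with each other. In *Cryab*-WT the order was *Svbp* (413 ± 41.3), *Tcp11* (191 ± 25.9), *Ceacam10* (75.7 ± 6.84), *Snx22* (50.8 ± 22.7), *Stx11* (20.1 ± 1.86), *Ms4a5* (3.95 ± 1.29) and *Ermap* (2.10 ± 0.191). Neighbours in this order did not overlap in mean ± SD, except *Ceacam10* and *Snx22*. *Tcp11* thus stood in the middle of the order at day 2 and next to *Svbp* at day 14.

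Relatives of each gene, from lists of its family or pathway, were compared in *Cryaa*-R49C-homo against *Cryaa*-WT. Of 98 tested list genes other than the 7, 7 rose and 2 fell (FDR at most 0.05), where 4.87% of all genes rose, 4.92% fell and 9.79% changed. With totals alone, 16 of the 98 rose and 1 fell, and over all genes 1884 rose and 254 fell where 679 and 686 did with TMM. The count of 9 was 3 without *Cryaa*-WT replicate 2 or 3, 4 without WT replicate 1 or homo replicate 2, and 17 without homo replicate 1. All genes called in this contrast moved with it, from 1365 of 13938 to 731 of 14525 without WT replicate 1, 776 of 14486 without WT replicate 2, 940 of 14329 without WT replicate 3, 823 of 14334 without homo replicate 2 and 3094 of 14398 without homo replicate 1. Of the 9, *Bet1l* and *Ceacam2* alone passed in each fit that left out 1 WT library or homo replicate 2 or 3. Among 16 tested genes of tubulin tyrosination and glutamylation, the pathway of *Svbp*, 2 rose and 0 fell, with a median log2 fold change of 0.14 beside 0.00 for all genes. The risen genes were *Ttll13* (0.635 to 1.84 CPM, FDR 0.0122) and *Ttll12* (3.58 to 5.79 CPM, FDR 0.0477), 2 genes of the tubulin ligase-like family, and *Ttll12* did not pass with the replicate block. The vasohibins, to which the *Svbp* protein binds, were at low levels and did not pass: *Vash1* had a log2 fold change of -0.25 (FDR 0.872), and *Vash2* of -0.70 (FDR 0.26).

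Of 42 tested SNARE genes and their partners, the proteins of membrane fusion to which *Stx11* belongs, 3 rose and 0 fell (median 0.15). These were *Bet1l*, a Golgi SNARE gene (4.57 to 12.9 CPM, FDR 0.000215), *Bet1* (6.94 to 11.9 CPM, FDR 0.0186) and *Sec22b* (14.7 to 27.1 CPM, FDR 0.0269). *Stxbp2*, whose protein binds syntaxin 11, had a log2 fold change of -0.76 and did not pass (FDR 0.138); it was picked after its value was seen. Of 31 sorting nexins, *Snx14* rose (2.80 to 4.73 CPM, FDR 0.0411, not past the threshold with the replicate block) and *Snx32* fell (4.19 to 1.90 CPM, FDR 0.00978), with a median of 0.13.

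*Ceacam2*, a relative of *Ceacam10*, fell from 8.64 ± 3.25 to 2.62 ± 1.91 CPM (FDR 0.00705), and it was 1 of 2 members of that family that were tested besides *Ceacam10*. Reads of such close paralogs can be lost or split where their sequences match. Of the other *Ms4a* genes 5 were tested, and *Ms4a7*, a macrophage gene, rose from 0.920 to 3.00 CPM (FDR 0.0474). It did not pass with RLE factors, or without any 1 of the WT libraries or homo replicate 2 or 3. None of 9 butyrophilin-like genes in the table besides *Ermap* had enough counts to be tested. Of 23 *Tcp11* relatives and germ cell genes, 2 were tested and 0 passed (median -0.09). The protamine genes *Prm1* and *Prm2* had 0 CPM in *Cryaa*-WT and *Cryab*-WT lenses, where *Tcp11* was well expressed. Only 5 of the 23 were at 0 in all libraries, so germ cell genes were not absent as a group. The 23 together had 4.58 ± 0.470 CPM in *Cryaa*-WT and 5.21 ± 1.35 in *Cryab*-WT (SD, n = 3). With every gene tested, *Dazl*, a germ cell gene, passed in *Cryaa*-R49C-homo against *Cryaa*-WT.

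**Figure D4:**
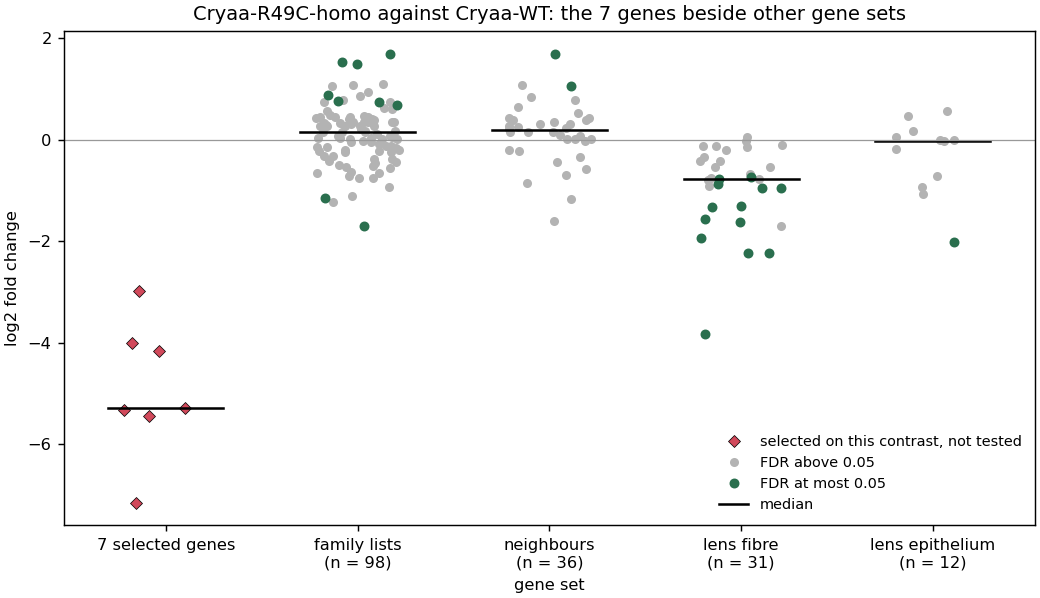
Log2 fold change of *Cryaa*-R49C-homo against *Cryaa*-WT (y axis) for the 7 genes (red diamonds, selected on this contrast and not tested), for 98 genes of their families, 36 chromosomal neighbours, 31 lens fibre markers and 12 lens epithelium markers (x axis); green points passed an FDR of 0.05 and bars are medians. The 7 genes lie between -2.98 and -7.15, and of the fibre markers *Lctl* alone reaches that range.

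Chromosomal neighbours were read for a fall of the same kind. Of the 36 nearest tested genes (3 on each side of each gene, without the 7), 2 rose and 0 fell, and the median log2 fold change was 0.19. *Ltv1*, a ribosome assembly gene near *Stx11*, rose from 8.24 to 17.2 CPM (FDR 0.0118), and *Ms4a7* near *Ms4a5* rose as given above, with the same limit. Around the *Ermap* and *Svbp* pair, *Zfp691* on the *Ermap* side, 15.8 kb from the *Ermap* start, had a log2 fold change of -0.84 ± 0.30 (SE) and did not pass (FDR 0.0785). *AU022252* on the *Svbp* side, 37.4 kb from the *Svbp* start, had 0.07 (FDR 0.886). *Cldn19*, a claudin gene 60.1 kb from the *Svbp* start on the same side, had the lowest log2 fold change of the 36, at -1.61 (1.84 to 0.560 CPM), and did not pass (FDR 0.191). *Slc2a1*, the gene of glucose transporter 1, had 0.02 (FDR 0.977), with 53.4 and 54.0 CPM. On chromosome 17, the nearest tested genes to *Tcp11* were *Scube3* (-0.68, FDR 0.234) and *Zfp523* (0.02, FDR 0.98) on one side and *Taf11* (0.11, FDR 0.805) on the other. With every gene tested, 3 neighbours rose and 2 fell (*Cldn19* and *Plagl1*). With totals alone 6 neighbours rose, and without *Cryaa*-WT replicate 3 none passed. Without *Cryaa*-R49C-homo replicate 1, 3 neighbours rose and 3 fell (*Cldn19*, *Fam96a* and *Prpf19*), in a fit where 1324 of all 14398 genes rose and 1770 fell.

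Markers of cell types were read beside the fall. Of 31 tested lens fibre markers, 0 rose and 13 fell (median -0.78), and all but 1 had a log2 fold change below 0. The lowest FDR values were those of *Lctl*, a klotho-like membrane protein gene of the lens (54.3 to 3.84 CPM, log2 fold change -3.82, FDR 9.4e-09), *Birc7* (93.7 to 24.4 CPM, -1.94, FDR 2.99e-05) and *Lgsn*, which encodes lengsin (10.97 to 2.33 CPM, -2.23, FDR 6.12e-05). With library totals alone 7 of the 31 fell, and without *Cryaa*-WT replicate 1 or replicate 2, 8 fell. Of 12 lens epithelium markers 1 fell, *Gja1* of connexin 43 (27.7 to 6.86 CPM, FDR 4.77e-05), and the median was -0.01. The part of a smaller fibre content in the fall of the 7 genes was not tested.

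Other cell types were present at low levels. Of 6 tested erythroid markers 0 changed, and their summed level was 38.3 to 59.0 CPM in *Cryaa*-WT and 42.6 to 151 CPM in homo, and *Hbb-bs*, a globin gene, had 30.2 and 51.8 CPM (FDR 0.611). *Alas2*, the erythroid heme synthesis gene, had 1.49 and 0.850 CPM (FDR 0.583). Of 15 tested leukocyte markers 2 rose (*C1qa* and *Aif1*, of macrophages and microglia) and 0 fell, with a sum of 14.5 to 29.0 CPM in WT and 30.7 to 60.1 in homo. The cytotoxic lymphocyte genes *Prf1* and *Gzmb* and the T cell gene *Cd3e* had 0 counts in all 18 libraries. *Nkg7*, another cytotoxic lymphocyte gene of the list, had enough counts to be tested and did not pass. *Stx11* was present in all 18 libraries, and which cells it came from was not tested.

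Of 14 retina markers 1 fell (*Slc6a13*, 2.28 to 0.725 CPM), and their sums were 32.5 to 97.5 CPM in WT and 32.3 to 50.7 in homo. Of 9 pigment and ciliary markers 3 fell (*Mitf*, *Pmel* and *Mlana*), with sums of 38.7 to 62.6 CPM in WT and 12.3 to 46.5 in homo. Of 10 vessel and mesenchyme markers 2 rose (*Rgs5* and *Cdh5*), with sums of 54.6 to 83.4 CPM in WT and 61.5 to 194 in homo. The part of pigment and ciliary tissue in the fall of the 7 genes was not tested.

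Finally, the genes most alike in pattern were listed by Pearson correlation of log2 CPM over the 18 libraries, which differ in age, line and TMM factor. The homo libraries that selected the 7 genes are among the 18, and several of the genes listed (*Lctl*, *Zfyve28*, *Alox15*, *2310069G16Rik*, *Rnf180*, *Tecrl* and *Faim2*) also had log2 fold changes below that of *Svbp* there, so the list in part restates the fall. For *Tcp11* they were *Lctl* (r = 0.996), *Bpifa5* (0.995) and *Ggct* (0.993), and for *Svbp* *Trafd1* (0.995), *Lctl* (0.994) and *Faim2* (0.994). *Zfyve28* was first both for *Stx11* (0.993) and for *Ermap* (0.990), followed by *Rnf180* (0.982) and *Tecrl* (0.980) for *Stx11* and by *Gm29054* (0.974) and *Rnf180* (0.974) for *Ermap*. *2310069G16Rik* was first for *Snx22* (0.988) and *Ceacam10* (0.992), and second for *Ms4a5* (0.978), after *Tmem26* (0.979). *Trafd1* came second for both *Snx22* (0.985) and *Ceacam10* (0.988), and *Alox15* was last of the 3 listed for *Snx22* (0.982) and *Ms4a5* (0.978), while *1700101I11Rik* (0.985) was last for *Ceacam10*.

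Between the 7 genes themselves, the 21 pairwise correlations had a median of 0.972 over all 18 libraries. Pairs among other genes were not taken beside them, so whether such values are particular to the 7 was not tested. The homo libraries selected the genes, and without them the median was 0.943 over 15 libraries (range 0.738 to 0.992), which still hold the difference between the 2 ages. Within day 14 alone (9 libraries) the median was 0.492, with a range of -0.41 to 0.797, and within *Cryaa*-WT and het (6 libraries) it was 0.845, with a range of 0.321 to 0.975. The libraries of day 2 share the scale whose effect on the spread is given above.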

How the data were processed

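RNA was measured by RNA-seq in 18 libraries of pooled whole mouse lenses, 6 groups of 3. According to the submitters' processing notes and the study's methods, the authors used CASAVA 1.8, aligned single reads with STAR 2.0.4b to GRCm38 and counted uniquely aligned reads with featureCounts 1.4.5. The deposited count table holds raw counts per gene, in 41422 lines for 40800 Ensembl identifiers, since genes with several Entrez identifiers are repeated. The deposited RPKM table, which the authors scaled by library size and gene length, was used for gene lengths. Deposited CPM and moderated log2 CPM were not used. Groups were taken from the sample titles, since 6 libraries titled *Cryab* carry a genotype entry for *Cryaa*-R49C.

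Counts were scaled with TMM and tested with edgeR 4.0.16 (R 4.3.3) by the quasi-likelihood test with robust dispersions, in 1 model of 6 groups, on the 13938 genes kept by filterByExpr. The study kept every gene with a count (26547 genes), where the prior degrees of freedom became infinite; with filterByExpr their median was 10.2. The threshold was a Benjamini-Hochberg FDR of 0.05. A 95% interval is the log2 fold change and its SE with 12 residual degrees of freedom. Log2 CPM used a prior count of 2. The scripts were tested on simulated data. Alternatives were RLE factors, library size alone, every gene, DESeq2 1.42.0, a likelihood-ratio test, a model of 6 libraries, a replicate block and each library left out. The 7 genes and all lists were chosen with earlier results of these data known, so the 7 were not tested in the comparisons that selected them, and tests of list genes are not independent of that choice. Named genes are the 7, at most 3 genes per list with the lowest FDR past the threshold, defining markers, the 3 nearest tested genes on each side, and the 3 most correlated genes. Others lie outside this rule, such as *Vash1*, *Vash2*, *Stxbp2*, *Prm1*, *Prm2*, *Dazl* and the genes named with the ranked falls. The labels number replicates 1 to 3 in each group. After the group means were removed, same-numbered *Cryab*-WT and homo libraries correlated with r = 0.277, 0.176 and 0.156, all above 0.1, so the blocked fit is given beside that comparison, whose main fit has no block. The other comparisons with WT each held a value below 0.1, though some values were larger. They were -0.046, 0.331 and 0.481 for *Cryaa*-R49C-het, 0.0436, 0.162 and 0.153 for *Cryaa*-R49C-homo, and 0.349, 0.00818 and 0.131 for *Cryab*-R120G-het. No source says what a number marks, and p-values measure the spread between pools of lenses.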

Additional observations from a re-analysis of the deposited data

How the results depend on the processing

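The count of 0 of the 7 genes called in *Cryaa*-R49C-het against WT, and in each of the 3 comparisons of the *Cryab* line, did not change under any alternative or with any library left out, and with the replicate block it was 0 in each of these. Over these and the WT comparison of the ages, 50 of 374 log2 fold changes of single genes, all short of the threshold in both fits, changed sign. In the WT comparison of the ages, 6 genes were called with RLE factors, every gene, DESeq2, the likelihood-ratio test and a model of 6 libraries, 7 without *Cryaa*-WT replicate 2 (*Ermap* then at a log2 fold change of 0.93), and 3 with library size alone, where *Snx22* (0.61) and *Ceacam10* (0.55) lost the call and *Stx11* (-0.10), *Ms4a5* (-0.013) and *Ermap* (-0.85) reversed; leaving out a library gave 6 to 7.

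Leaving out a library moved all genes called in *Cryaa*-R49C-homo against WT from 1365 to between 731 (without WT replicate 1) and 3094 (without homo replicate 1), and the counts below moved beside it. For the family lists, 9 genes called became 17 with library size alone and 7 with the replicate block; leaving out a library gave 3 to 17, with 17 without homo replicate 1, 4 without WT replicate 1 or homo replicate 2, and 3 without WT replicate 2 or 3. Fibre markers went from 13 to 7 with library size alone and to 18 with the block; leaving out a library gave 8 to 17. Neighbours went from 2 to 1 with RLE factors, 6 with library size alone and 5 with every gene; leaving out a library gave 0 to 6, with 6 without homo replicate 1. With every gene tested, all genes called went from 1 to 17 in *Cryaa*-R49C-het, from 1 to 140 in *Cryab*-R120G-het and from 7 to 302 in *Cryab*-R120G-homo against WT. DESeq2 gave 2, 12 and 20 there, the likelihood-ratio test 15, 46 and 257, and the block 1, 3 and 18. Models of 6 libraries called 473 genes in *Cryaa*-R49C-homo against WT where the model of all groups called 1365, and the likelihood-ratio test called 2886. The causes were not tested. Depth limits *Ms4a5*, whose homo libraries held 1 read in all.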
